A study of Mus musculus with 16 samples.

Results

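Oct4 was added to the reprogramming factors Klf4, Sox2 and c-Myc (KSM) in mouse embryonic fibroblasts (MEF), and RNA taken on day 3 was set against RNA of cells given KSM with the control vector DR. The comparison holds 2 libraries, 1 per group, of the 16 samples and 13 RNA libraries of the series, and both were chosen by their labels alone. Per the labels, all KSM cells were OG2 transgenic MEF at passage 2, the other MEF and ESC described here also carried OG2, and OG2 is a reporter in which the Oct4 promoter drives a fluorescent protein. The strain label is 1/2 129SVJ, 3/8 C57B6 and 1/16 CBA for KSM with DR, and 1/17 CBA in its last term for KSM with Oct4. That last term differs in nearly every RNA library and counts upwards through the series (1/18 in KSM with c-JunDN, 1/19 in KSM with Jdp2), and no strain difference was read from it. KSM with c-JunDN, a dominant-negative c-Jun, and KSM with Jdp2, a repressor that dimerises with Jun proteins, were the other libraries of day 3. A further 4 libraries served for comparison: MEF with Oct4 alone (1/14 CBA), MEF with DR (1/12 CBA), wild-type (WT) MEF (1/11 CBA), all at passage 2, and WT embryonic stem cells (ESC) at passage 5 (1/8 CBA). The embryos' age, the day on which MEF without KSM were taken, the promoter driving the factors and the share of cells that took up each virus were not given in the sources used here. Each library came from a whole culture, so fewer cells of a type and less RNA per cell cannot be told apart.

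Oct4, encoded by Pou5f1, is a POU-domain transcription factor of the early embryo and of ESC that binds an octamer sequence, often beside Sox2. Together with Nanog, Esrrb, Sall4 and other factors it keeps ESC pluripotent, and with Sox2, Klf4 and c-Myc it turns fibroblasts back into a pluripotent state. In that process mesenchymal genes are known to give way to epithelial genes early, and the pluripotency network is known to come on late. AP-1 factors such as c-Jun hold fibroblast genes active. The series asked why c-JunDN and Jdp2 can take the place of Oct4 beside KSM, and KSM with Oct4 is the full mixture in that design.

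Expected counts (reads assigned to each gene by the authors) summed to 3440917 with Oct4 and 2556709 with DR, and to 2976932 and 2623566 in the KSM libraries with c-JunDN and Jdp2. Values below are CPM, the counts relative to library size after scaling between libraries, and 3 counts were worth 0.835 CPM with Oct4 and 1.104 CPM with DR. Pou5f1 was at 1711 CPM (6146 counts) in KSM with Oct4 and at 4.05 CPM (11 counts) with DR, 8.80 CPM with c-JunDN and 10.5 CPM with Jdp2. Among the other libraries it was at 1016 CPM in WT ESC, 10377 CPM in MEF with Oct4 and 2.42 CPM or less in the other MEF libraries. The label was borne out by this gene, but reads of the introduced and the endogenous gene are counted together. The other factors were close in the pair: Sox2 was at 698 against 583 CPM, Klf4 at 878 against 809 CPM. Myc was at 916 against 850.0 CPM. Of 10 fibroblast markers, all were detected in each KSM library, summing to 1258 CPM with DR and 1462 CPM with Oct4, against 32300 CPM in MEF with DR. Macrophage markers summed to 18.8 CPM with DR and 11.7 CPM with Oct4, and 9 of 13 were at 0 in each, Csf1r, Tyrobp and C1qa among them. The KSM library with DR stood apart in Lars2, a mitochondrial leucyl-tRNA synthetase gene, which took 1.158% of its counts, and 0.148%, 0.025% and 0.095% of those with Oct4, c-JunDN and Jdp2. With 1 library per group no value has a replicate check, and each 95% interval covers counting error only.

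The letters bound by the factors of the design were looked for in the 250 bases before each annotated start of a gene, on both strands. The windows came from RefSeq (build GRCm38.p6) and were at hand for 8645 of the 10750 measured genes. A gene with several starts counted if any of its windows held a match, so the length searched differed between genes. The octamer ATGCAAAT was in 1.5% of all these genes, in 3.83% (15 of 392) of those at least 2-fold higher with Oct4 and in 2.44% (13 of 532) of those at least 2-fold lower. The AP-1 site TGANTCA was in 5.22% of all genes, in 7.65% (30) of the higher and in 10.7% (57) of the lower ones. The TCF/LEF site CTTTGAT of Wnt signalling was in 2.72% of all genes, in 2.04% (8) of the higher and in 3.01% (16) of the lower ones. The windows below show the octamer and the AP-1 site each in 1 higher and 1 lower gene among those described further on. They are in lower case with the match in capitals, 5′ to 3′ on the gene's own strand, and a match describes letters and not a bound site. The octamer lay 186 bases before the start of Zfp42, an ESC gene that was higher, at chr8:43307010-43307259 (minus strand). It also lay 56 bases before the start of Aldh1a7, a dehydrogenase gene that was lower, at chr19:20727557-20727806 (minus strand). An AP-1 site lay 102 bases before the start of Gbp2, an interferon-stimulated gene that was higher, at chr3:142620413-142620662 (plus strand). Another lay 64 bases before the start of Ecm1, a matrix gene that was lower, at chr3:95739570-95739819 (minus strand). Further named genes with a match included Il1rn (higher) and Slc7a11 (lower) for the octamer, and Adh7, Anxa2 and Igfbp2 (lower) and Il1rn (higher) for AP-1.
Zfp42: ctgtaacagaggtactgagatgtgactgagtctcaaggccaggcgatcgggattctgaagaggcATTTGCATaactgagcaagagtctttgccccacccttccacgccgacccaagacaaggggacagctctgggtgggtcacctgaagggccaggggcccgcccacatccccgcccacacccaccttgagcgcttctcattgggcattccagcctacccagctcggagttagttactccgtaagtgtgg
Aldh1a7: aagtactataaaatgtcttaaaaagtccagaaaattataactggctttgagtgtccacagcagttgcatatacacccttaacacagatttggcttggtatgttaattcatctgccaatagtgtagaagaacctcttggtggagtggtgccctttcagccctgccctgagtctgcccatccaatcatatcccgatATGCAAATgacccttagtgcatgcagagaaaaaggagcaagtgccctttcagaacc
Gbp2: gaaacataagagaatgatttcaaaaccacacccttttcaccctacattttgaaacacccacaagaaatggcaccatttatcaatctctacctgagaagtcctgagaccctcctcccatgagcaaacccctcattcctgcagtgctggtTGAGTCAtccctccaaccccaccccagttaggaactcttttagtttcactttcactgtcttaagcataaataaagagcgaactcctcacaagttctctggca
Ecm1: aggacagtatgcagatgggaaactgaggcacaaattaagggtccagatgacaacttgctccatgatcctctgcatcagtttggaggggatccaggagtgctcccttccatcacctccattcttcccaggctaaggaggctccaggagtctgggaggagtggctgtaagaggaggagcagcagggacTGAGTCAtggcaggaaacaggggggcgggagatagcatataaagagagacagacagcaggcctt

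More genes were lower than higher with Oct4. A gene counted as measured with at least 5 CPM in 1 of the pair of libraries. A gene that reached 5 CPM in only 1 of them thus entered through the library where it was high. Counts and medians of lists with such members are a description and not support. A change is log2 of the ratio of CPM with a pseudocount of 1, a scale that understates the change of low genes. Calls of 2-fold are on that scale, whereas fold differences with an interval are ratios of CPM without it. With Oct4, 500 of the 10750 measured genes lay 2-fold or more above DR (4.65%), 717 lay 2-fold or more below it (6.67%), and 9533 were within 2-fold. The shares of 4.65% and 6.67% are the background for every count of list members below. For 496 (4.61%) of the former and 710 (6.6%) of the latter the interval of counting error did not include equal levels. The median change over all genes was 0.07 on the log2 scale. Among the higher genes 151 passed 4-fold and 58 passed 8-fold, against 180 and 25 of the lower genes. The higher genes were the less abundant: their median level in the higher library was 18.1 CPM, 45 reached 100 CPM and 33 had no count with DR. The lower genes had a median of 21.7 CPM, 101 reached 100 CPM and 10 had no count with Oct4.

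**Figure D1:**
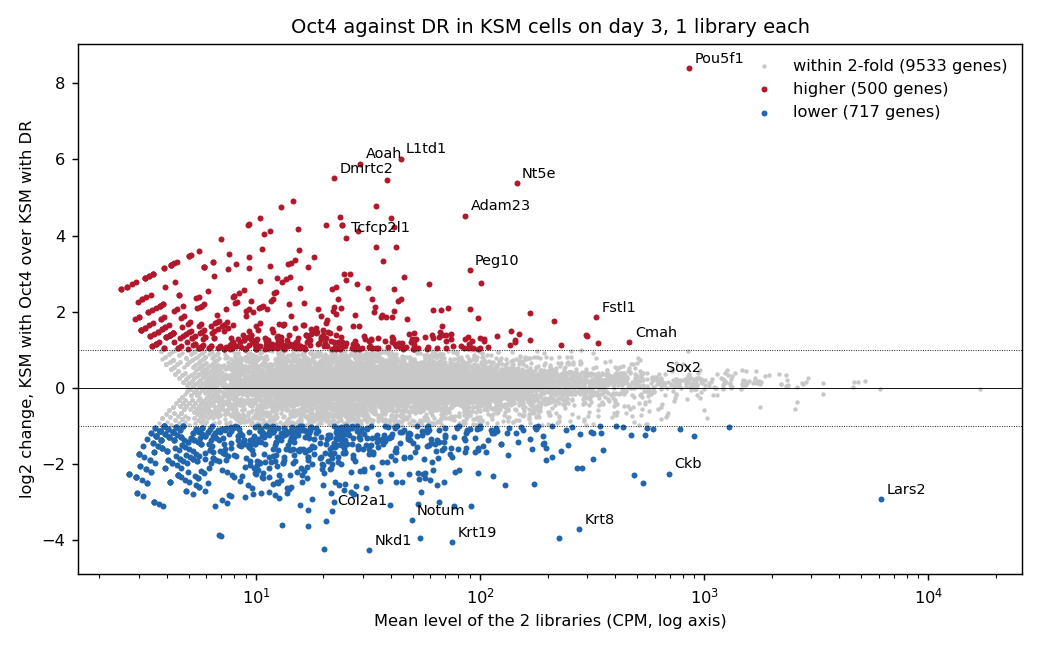
Change with Oct4 (log2, KSM with Oct4 over KSM with DR) against the mean level of the pair of libraries (CPM, log axis), 1 point per measured gene, with dotted lines at 2-fold. Pou5f1 lies alone at the top, the 500 higher genes reach further from 0 than the 717 lower genes, and genes of over 100 CPM lie mostly within 2-fold.

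The other KSM libraries of day 3 showed where the library with Oct4 stood among all 4. These counts use the same libraries with Oct4 and DR again and are a description, not further support. Of the 500 higher genes, 264 (52.8%) were at least 2-fold above each of the 3 other KSM libraries. Of the 717 lower genes, 461 (64.3%) were at least 2-fold below each of the 3. The shares of 52.8% and 64.3% are the background for the same count in each list below. Counted over the 11126 genes with 5 CPM in any KSM library, the library with Oct4 lay beyond all others in this way for 264 (2.37%) above and 527 (4.74%) below. The same count was 39 (0.351%) above and 33 (0.297%) below for DR, 9 (0.0809%) and 14 (0.126%) for c-JunDN, and 54 (0.485%) and 15 (0.135%) for Jdp2. The library with Oct4 was thus the one that most often lay beyond all the others. Libraries that resemble each other mask each other in this count, so it does not give how many genes differ.

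The highest named genes were mostly near 0 in the 3 other KSM libraries. L1td1, an ESC gene whose protein binds RNA, was at 87.9 CPM with Oct4, 0.37 with DR, 0.94 with c-JunDN and 0.34 with Jdp2, a difference of 239-fold (95% interval 42.6 to 9466) from DR that rests on 1 count with DR. Aoah, an acyloxyacyl hydrolase that inactivates bacterial lipopolysaccharide, was at 58.4 CPM with Oct4, 0 with DR, 0 with c-JunDN and 0.68 with Jdp2. It had no count with DR and was at least 52.9-fold higher. Dmrtc2, a DM-domain gene of male germ cells, was at 44.5 CPM with Oct4, 0 with DR, 0 with c-JunDN and 1.01 with Jdp2, at least 40.3-fold higher than with DR. Msc, a bHLH repressor gene, had no count with DR and 29.2 CPM with Oct4, at least 26.5-fold more. The abundant example was Nt5e, the ectonucleotidase CD73 that makes adenosine, at 285 CPM with Oct4, 5.89 with DR, 12.9 with c-JunDN and 5.06 with Jdp2, a 48.3-fold (95% interval 29.6 to 84.9) difference. Adam23, a neuronal adhesion protein, was at 165 CPM with Oct4, 6.26 with DR, 11.6 with c-JunDN and 12.2 with Jdp2. Gabrb2, a subunit of the GABA-A receptor, was at 46.2 CPM with Oct4, 1.1 with DR, 0.31 with c-JunDN and 1.01 with Jdp2. Necab1, a neuronal calcium-binding protein, was at 67.4 against 1.47 CPM. The teneurin gene Odz1 was at 20.9 against 0 CPM. All 15 genes in the upper part of the heat map were higher with Oct4 than in each of the 3 other KSM libraries. Their levels in WT ESC varied: 6 of the 15 were above 15 CPM there (Pou5f1, L1td1, Aoah, Adam23, Dcaf12l1 and Tmem229b), while Nt5e, Gabrb2, Dmrtc2, Necab1, Odz1 and Gda were below 2 CPM. Of those 6, Adam23 alone was higher in WT MEF (174 CPM) than in WT ESC (19.2 CPM), and it was at 128 CPM in MEF with DR.

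**Figure D2:**
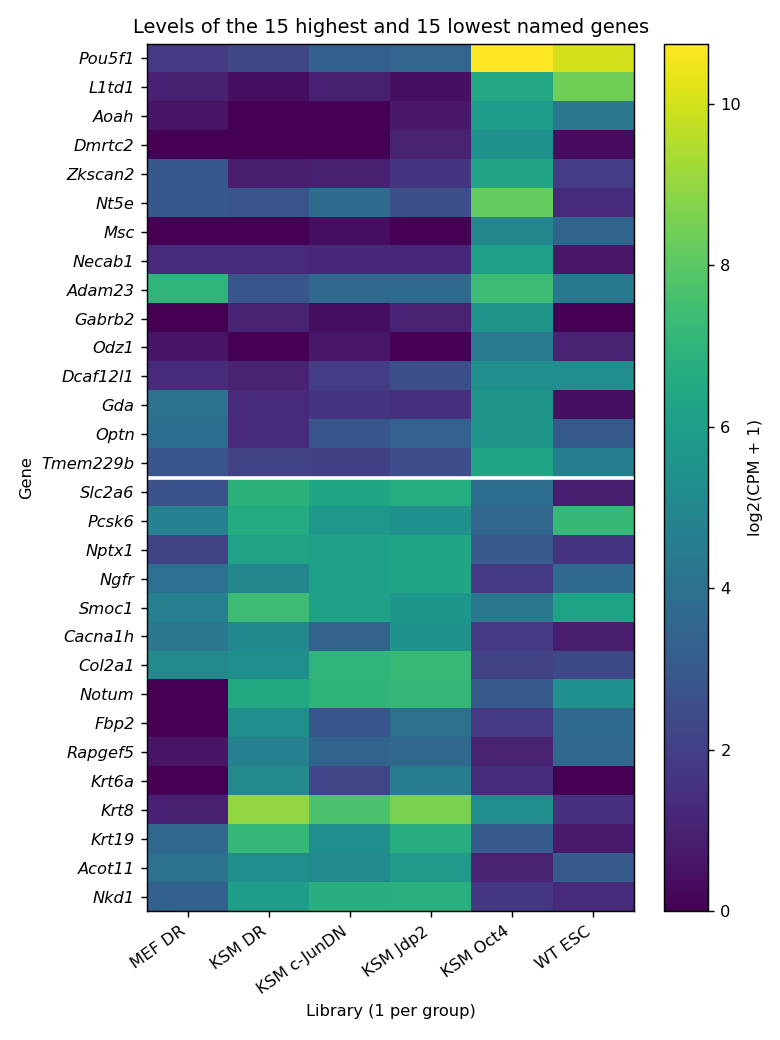
Levels (log2 of CPM plus 1, colour) of the 15 genes with the largest rise and the 15 with the largest fall among named genes of at least 20 CPM, in 6 libraries, 1 per group. The column for KSM with Oct4 is bright above the white line and dark below it, so that KSM with Oct4 is the highest of the 4 KSM libraries in all 15 upper rows and the lowest in all 15 lower rows.

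Among abundant genes the changes were smaller. Cmah, which hydroxylates sialic acid, was at 644 CPM with Oct4, 282 with DR, 369 with c-JunDN and 249.8 with Jdp2. Fstl1, a secreted glycoprotein that binds BMPs, was at 518 CPM with Oct4, 142 with DR, 183 with c-JunDN and 144 with Jdp2. Usp9x, a deubiquitinase, was at 463 against 205 CPM. The nuclear envelope protein gene Syne2 was at 431 against 164 CPM. The chloride channel gene Ano1 was at 430.3 CPM with Oct4, 166 with DR, 69.8 with c-JunDN and 85.4 with Jdp2. Grsf1, which binds mitochondrial RNA, was at 329 against 96.4 CPM. On the lower side, Ckb, a creatine kinase, was at 238 CPM with Oct4, 1147 with DR, 1221 with c-JunDN and 1376 with Jdp2, a fall of 4.82-fold (95% interval 4.46 to 5.20) that held against each other library. Of the abundant lower genes, Anxa2, Gsto1, Aldh3a1, Ahnak and Ccnd1 were within 2-fold of at least 1 other KSM library. Ahnak was at 377 CPM with Oct4, 805 with DR, 538 with c-JunDN and 625 with Jdp2. Anxa2, a membrane-binding annexin, was at 847 CPM with Oct4, 1736 with DR, 934 with c-JunDN and 887 with Jdp2, so that the library with DR was the one that stood high. Gsto1, a glutathione transferase, was at 527 CPM with Oct4, 1269 with DR, 632 with c-JunDN and 718 with Jdp2, with the values for c-JunDN and Jdp2 nearer to those for Oct4. Aldh3a1, an aldehyde dehydrogenase, was at 159 CPM with Oct4, 909 with DR, 217 with c-JunDN and 258 with Jdp2. Adh7 and App lay at least 2-fold below each other KSM library. Adh7, an alcohol and retinol dehydrogenase, was at 163 CPM with Oct4, 804 with DR, 344 with c-JunDN and 367 with Jdp2. Amyloid precursor protein (App) was at 318 CPM with Oct4, 764 with DR, 687 with c-JunDN and 638 with Jdp2, lowest with Oct4. Lars2, at 1421 CPM with Oct4, 10895 with DR, 237 with c-JunDN and 845 with Jdp2, was highest with DR and lowest with c-JunDN. With DR it was more abundant than any of the named lower genes, but the filter on gene symbols left it out of the naming.

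Pluripotency genes were partly on. Of 25 pluripotency transcription factors in the list, 9 were measured, 6 of them were higher and 1 lower with Oct4, with a median change of 1.44 against 0.07 for all genes. Tcfcp2l1, Sall4, Nr0b1 and Zfp42 reached 5 CPM only with Oct4, so they entered through the library where they were high. The filter thus raises this count and median, which are a description and not support. Of the 6 higher genes, 5 (83.3%) were at least 2-fold above each other KSM library, against 52.8% of all higher genes. Tcfcp2l1, a factor of the naive state, was at 48.1 CPM with Oct4, 2.21 with DR, 3.14 with c-JunDN and 4.05 with Jdp2, a difference of 21.8-fold (95% interval 9.81 to 60.2) from DR. Sall4, a zinc-finger partner of Oct4, was at 8.91 CPM (32 counts) with Oct4 and had no count in any other KSM library, at least 8.06-fold higher than with DR. Nr0b1, an orphan nuclear receptor of ESC, likewise was at 6.40 CPM (23 counts) with Oct4 and at 0 in the others, at least 5.80-fold higher. Zfp42 (Rex1), a zinc-finger gene of the naive state, was at 5.84 CPM with Oct4, 0.74 with DR, 0.31 with c-JunDN and 0 with Jdp2, on 21 counts against 2. With a pseudocount of 5 CPM its change was 0.92, within 2-fold. Tbx3 was the 1 lower member (-1.50). These levels were far below those of WT ESC, where Tcfcp2l1 was at 1533 CPM, Sall4 at 311 CPM, Zfp42 at 261 CPM and Nr0b1 at 85.9 CPM. The 16 members that were not measured had at most 16 counts each with Oct4 and 9 with DR. Nanog had 1 count with Oct4 and 4 with DR, Esrrb had 2 in each, and Prdm14 had none in either, against 5253, 6763 and 762 counts in WT ESC. These are raw counts, and the WT ESC library was deeper, with 12173100 counts in all against 3440917 with Oct4 and 2556709 with DR. Of the 16, 12 had at most 3 counts with Oct4 and 13 at most 3 with DR, and at this depth so low a count cannot be told from 0. Gbx2, a homeobox gene, had 16 counts with Oct4 and 3 with DR, and the zinc-finger gene Zscan10 had 12 and 2, both picked with their values in view.

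Of 31 other ESC-restricted genes, 11 were measured, 2 were higher and none lower, with a median of -0.30 that was above 0 (0.05) without the level filter or with one of 20 CPM. The higher ones were L1td1 and Tdh, the threonine dehydrogenase of mouse ESC, which was at 17.8 CPM with Oct4, 0.74 with DR, 2.20 with c-JunDN and 4.39 with Jdp2 and rests on 2 counts with DR. L1td1 and Tdh reached 5 CPM only with Oct4. Cd9, a tetraspanin, was at 200.1 against 396 CPM. Lin28b was at 3.62 against 8.10 CPM, both within 2-fold. The 20 members not measured had at most 13 counts with Oct4, and Dppa2, Dppa3 and Dppa4 had none in either library. The 10 ESC markers summed to 114 CPM with Oct4, against 5.52 CPM with DR, 4.40 CPM with c-JunDN, 5.40 CPM with Jdp2 and 4840 CPM in WT ESC, and L1td1 and Tdh held most of the sum.

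Of 22 measured epithelial adhesion and keratin genes, 11 were lower with Oct4, 10 were within 2-fold and 1 was higher, with a median of -1.08. Of all genes, 6.67% were lower and 4.65% higher. Of the 11, 9 (81.8%) were at least 2-fold below each other KSM library, against 64.3% of all lower genes. Krt8, a keratin of simple epithelia, was at 38.1 CPM with Oct4, 515 with DR, 199 with c-JunDN and 379 with Jdp2, a fall of 13.5-fold (95% interval 11.3 to 16.2). Krt19 was at 7.51 CPM with Oct4, 142 with DR, 37.4 with c-JunDN and 103 with Jdp2, a fall of 19.0-fold (95% interval 12.8 to 29.1). The 4 libraries thus stood in 1 order for both keratins, with DR highest, then Jdp2, then c-JunDN, and Oct4 lowest. Lamb3, a laminin chain of the epidermal basement membrane, was at 0.83 CPM with Oct4, 14.0 with DR, 21.4 with c-JunDN and 30.7 with Jdp2, on 3 counts with Oct4. The exception was Pkp2, a plakophilin of desmosomes, at 49.8 CPM with Oct4, 6.63 with DR, 3.46 with c-JunDN and 1.69 with Jdp2, a rise of 7.52-fold (95% interval 4.62 to 13.0). Cdh1, which encodes E-cadherin, was at 37.6 CPM with Oct4, 30.2 with DR, 20.4 with c-JunDN and 50.3 with Jdp2. Epcam was at 22.0 CPM with Oct4, 13.2 with DR, 10.1 with c-JunDN and 19.9 with Jdp2, and both were within 2-fold of DR. Cdh1 and Epcam are not named by the rule and were picked with their values in view. Keratinocyte markers summed to 131 CPM with DR, 21.7 CPM with Oct4, 47.8 CPM with c-JunDN and 100.6 CPM with Jdp2. Of these 9 markers, 3 were measured and all were lower: Krt6a at 1.67 against 32.4 CPM, Krt14 at 3.62 against 21.7 CPM. Sfn was at 12.0 against 72.1 CPM. Krt6a and Krt14 reached 5 CPM only with DR. Krt15 and Trp63 were at 0 with DR. The part of such cells in the change was not tested.

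The epithelial regulators did not move one way. Of 12 measured, 3 were higher and 3 lower, and their median of 0.24 was -0.13 on the authors' transcript fractions and between -0.53 and -0.08 under the other level filters. Esrp2, an epithelial splicing regulator, was at 27.6 CPM with Oct4, 9.57 with DR, 22.9 with c-JunDN and 31.4 with Jdp2, so that the library with DR was the low one. Grhl1, a grainyhead factor, was at 14.2 against 5.89 CPM. Pard6b, a polarity gene, was at 12.2 against 4.79 CPM. With a pseudocount of 5 CPM Grhl1 and Pard6b were within 2-fold (0.82 for each).

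**Figure D3:**
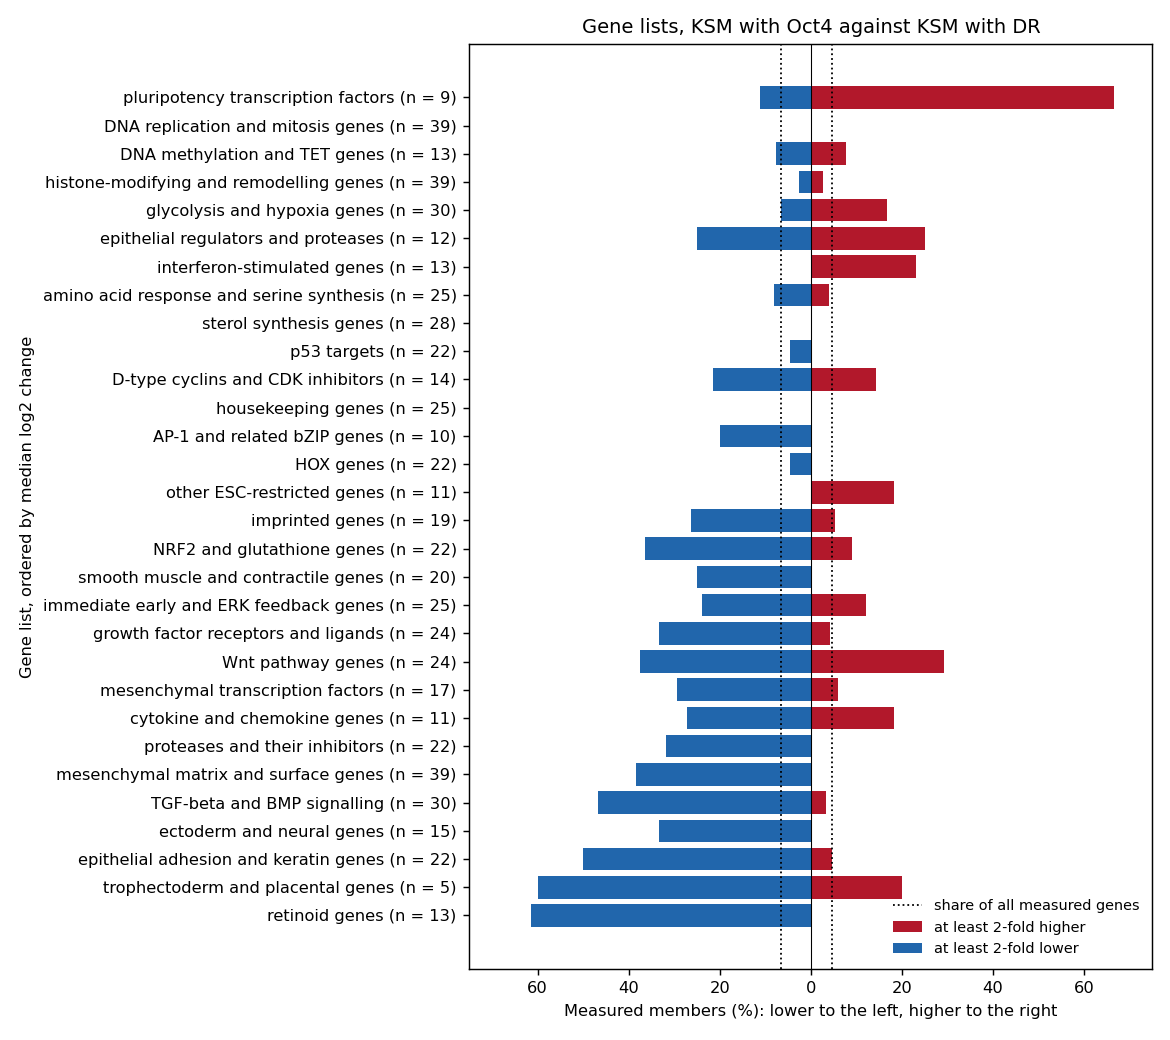
Share of the measured members of each gene list that were at least 2-fold lower (left, blue) or higher (right, red) with Oct4, in percent, with the lists ordered by their median change and dotted lines at the shares of all measured genes (6.67% lower, 4.65% higher). Pluripotency factors stand out to the right, and the retinoid, epithelial, TGF-beta and matrix lists to the left. Some pluripotency factors reached 5 CPM only with Oct4, and so entered through the library where they were high.

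Of 17 measured mesenchymal transcription factors, 5 were lower, 11 within 2-fold and 1 higher, with a median of -0.67. Snai1, which represses E-cadherin, was at 4.45 CPM with Oct4, 12.1 with DR, 10.7 with c-JunDN and 7.09 with Jdp2. With a pseudocount of 5 CPM its change was -0.86, within 2-fold. Twist2, a bHLH factor of dermis and bone, was at 12.2 CPM with Oct4, 33.1 with DR, 22.3 with c-JunDN and 15.5 with Jdp2. Prrx2, a paired-related homeobox gene, was at 0.83 CPM with Oct4, 8.47 with DR, 4.40 with c-JunDN and 4.39 with Jdp2, a fall of 10.1-fold (95% interval 3.06 to 52.8) that rests on 3 counts with Oct4. The higher gene was Meox2, a homeobox gene of mesoderm, at 12.5 CPM with Oct4, 0.37 with DR, 1.57 with c-JunDN and 1.01 with Jdp2, on 1 count with DR. Of the 5 lower factors, 2 (40.0%) were at least 2-fold below each other KSM library, against 64.3% of all lower genes.

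Of 39 measured matrix and surface genes of mesenchyme, 15 were lower, 24 within 2-fold and none higher, with a median of -0.76. Of all genes, 6.67% were lower. Of the 15, 12 (80.0%) lay at least 2-fold below each other KSM library, against 64.3% of all lower genes. Nid1, a basement membrane linker, was at 105 CPM with Oct4, 464 with DR, 509.6 with c-JunDN and 586 with Jdp2, a fall of 4.40-fold (95% interval 3.92 to 4.95). Thbs1, the matricellular protein thrombospondin, was at 33.7 CPM with Oct4, 162 with DR, 243 with c-JunDN and 368 with Jdp2. Tgfbi, a secreted matrix protein, was at 6.12 CPM with Oct4, 46.8 with DR, 33.0 with c-JunDN and 42.2 with Jdp2. Ecm1 was at 50.7 CPM with Oct4, 299 with DR, 112 with c-JunDN and 273 with Jdp2. In all 4 the library with Oct4 was the lowest. Col1a1, the main chain of fibrillar collagen, was at 169 CPM with Oct4, 392 with DR, 610.5 with c-JunDN and 718 with Jdp2. Thy1, a fibroblast surface protein, was at 6.96 CPM with Oct4, 23.9 with DR, 49.3 with c-JunDN and 40.5 with Jdp2. Other fibroblast collagens did not follow: Col1a2 was at 473 against 322 CPM. Col3a1 was at 637 against 373 CPM, within 2-fold. Col1a2 and Col3a1 were among the 10 fibroblast markers, of which 4 were lower and none higher, while their summed level was 1462 CPM with Oct4 and 1258 CPM with DR. Col2a1, a cartilage collagen, was at 3.34 CPM with Oct4, 40.1 with DR, 128 with c-JunDN and 151 with Jdp2, a fall of 12.0-fold (95% interval 6.61 to 24.0). It was the 1 measured gene of 6 chondrocyte markers, with Acan at 0 in each of the 4 libraries. Of 20 contractile genes measured, 5 were lower and none higher, with a median of -0.48. They included the calponin gene Cnn2 at 6.96 against 24.3 CPM. The tropomyosin gene Tpm2 was at 7.24 against 20.98 CPM.

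TGF-beta and BMP signals act through Smad proteins and, among their targets, switch on the Id genes. Of 30 measured genes of this pathway 14 were lower and 1 was higher with Oct4, against 6.67% and 4.65% of all genes, with a median of -0.78. Of the 14, 11 (78.6%) lay at least 2-fold below each other KSM library, against 64.3% of all lower genes. Among the ligands, Bmp4 was at 0.83 CPM with Oct4, 8.83 with DR, 11.0 with c-JunDN and 10.8 with Jdp2, a fall of 10.6-fold (95% interval 3.21 to 54.9) that rests on 3 counts with Oct4. Bmp2, Bmp6, Tgfb1, Tgfb2 and Inhbb were also among the lower genes, with changes from -1.93 to -1.12. The lower receptor gene was Tgfbr2, at 78.8 CPM with Oct4, 215 with DR, 223 with c-JunDN and 191 with Jdp2, whereas Tgfbr1 was at 64.0 against 37.5 CPM. Of the targets, Id1 was at 5.84 CPM with Oct4, 43.4 with DR, 26.1 with c-JunDN and 28.0 with Jdp2, a fall of 7.43-fold (95% interval 4.64 to 12.5), and Id3 at 6.12 CPM with Oct4, 48.2 with DR, 31.1 with c-JunDN and 34.1 with Jdp2, a fall of 7.88-fold (95% interval 4.99 to 13.0). Id2 was at 37.6 against 28.3 CPM, within 2-fold. Fstl1 was the 1 higher gene (1.85), while Fstl3, an activin antagonist of the same family, was at 0.83 against 6.26 CPM. The ligand and receptor genes beyond Bmp4, and Id2, were picked with their values in view.

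The Wnt genes split. Wnt ligands bind Frizzled receptors and Lgr receptors strengthen the signal, while Nkd1, Notum, Axin2 and Apcdd1 are known as inhibitors that the pathway itself switches on. Of 24 measured, 7 were higher and 9 lower with Oct4, against 4.65% and 6.67% of all genes, with a median of -0.60. All 9 lower genes and 6 of the 7 higher ones lay at least 2-fold beyond each other KSM library, against 64.3% and 52.8% of all such genes. Nkd1, which binds Dishevelled, was at 2.23 CPM with Oct4, 61.5 with DR, 109 with c-JunDN and 110.4 with Jdp2, a fall of 27.6-fold (95% interval 13.7 to 65.0) and, at -4.28, the lowest log2 change of all measured genes. Notum, a secreted enzyme that strips Wnt of its lipid, was at 7.24 CPM with Oct4, 91.7 with DR, 127 with c-JunDN and 140.1 with Jdp2, a fall of 12.7-fold (95% interval 8.44 to 19.8). Axin2, Apcdd1 and the receptor gene Lgr6 were lower too (changes of -1.63, -2.18 and -2.49). All 5 were at their lowest with Oct4 and higher with c-JunDN and Jdp2 than with DR. Of the receptors, Fzd5 was at 67.9 CPM with Oct4, 5.89 with DR, 8.80 with c-JunDN and 6.41 with Jdp2, a rise of 11.5-fold (95% interval 6.96 to 20.5), and Lgr4 at 117 CPM with Oct4, 26.5 with DR, 34.6 with c-JunDN and 23.3 with Jdp2. The secreted Wnt binders Sfrp1 and Sfrp4 were higher, Sfrp1 at 34.0 CPM with Oct4, 2.21 with DR, 5.03 with c-JunDN and 2.70 with Jdp2 and Sfrp4 at 8.35 CPM against no count with DR, at least 7.56-fold more. The ligand genes Wnt16 (2.34) and Wnt5b (2.08) and the repressor gene Tcf7l1 (2.02), which acts in ESC, were higher, and Wnt9a (-1.36) was lower. Genes of this paragraph other than Nkd1, Notum, Fzd5 and Sfrp1 were picked with their values in view.

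**Figure D4:**
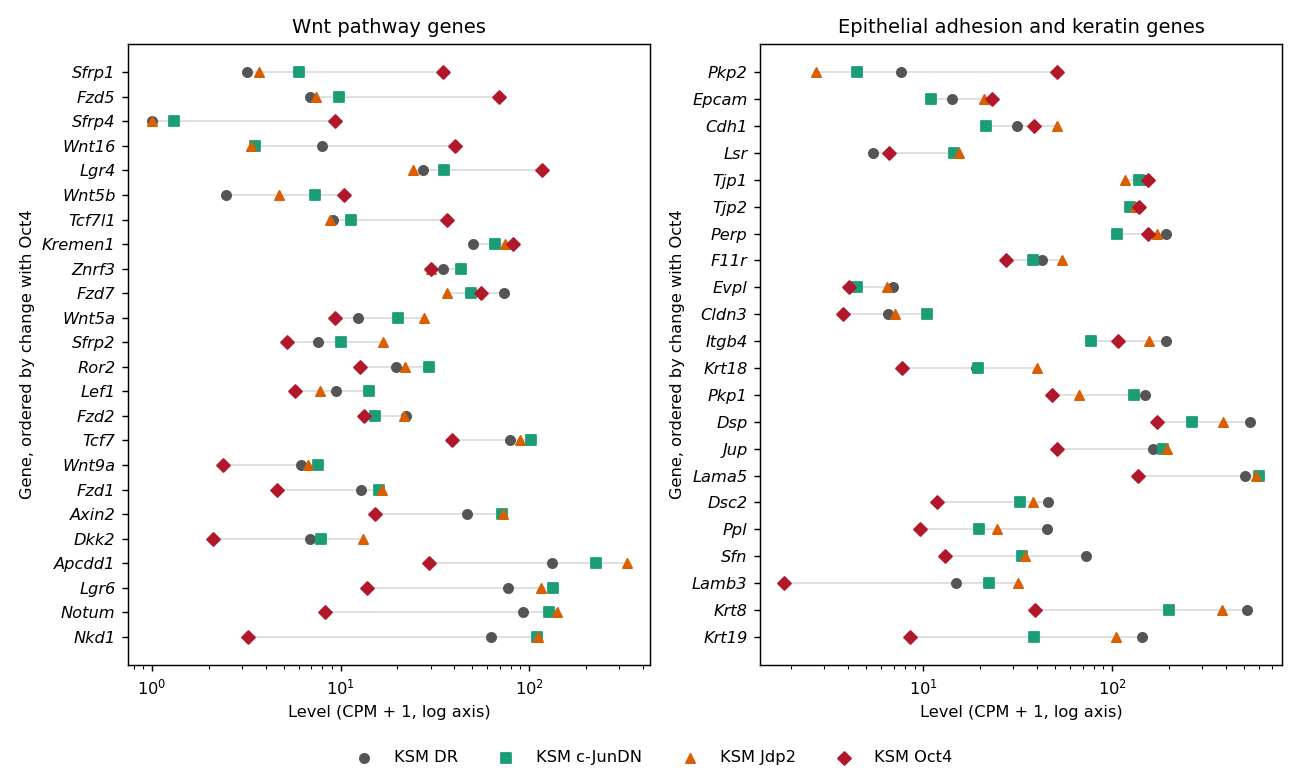
Levels (CPM plus 1, log axis) of the measured Wnt pathway genes (left) and epithelial adhesion and keratin genes (right) in the 4 KSM libraries, 1 point per library, ordered by the change with Oct4. The diamonds of Oct4 lie to the right of the other 3 libraries for Sfrp1, Fzd5, Wnt16 and Lgr4 and to the left for Nkd1, Notum, Krt8 and Krt19.

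AP-1 is a dimer of Jun and Fos proteins. Of 10 measured AP-1 genes 2 were lower and none higher, with a median of -0.22. Jun, the gene of c-Jun, was at 28.1 CPM with Oct4, 67.0 with DR, 352 with c-JunDN and 86.8 with Jdp2, a fall of 2.38-fold (95% interval 1.86 to 3.07). The value with c-JunDN includes whatever reads the introduced construct gave. Fosl2 was at 20.04 CPM with Oct4, 42.7 with DR, 40.8 with c-JunDN and 47.9 with Jdp2. With a pseudocount of 5 CPM its change was -0.93, within 2-fold. Fosl1 was at 26.2 CPM with Oct4, 53.01 with DR, 40.5 with c-JunDN and 35.8 with Jdp2, the latter just within 2-fold (-0.99). Fos and Fosb were not measured. Of 25 immediate early and ERK feedback genes, 6 were lower and 3 higher. Etv5, an ETS factor of ESC that FGF signalling switches on, was at 204 CPM with Oct4, 72.1 with DR, 80.7 with c-JunDN and 61.1 with Jdp2, a rise of 2.82-fold (95% interval 2.41 to 3.32). Btg2, an antiproliferative gene, was at 64.8 CPM with Oct4, 184 with DR, 157 with c-JunDN and 207 with Jdp2. Klf6, a Kruppel-like factor, was at 20.9 CPM with Oct4, 53.7 with DR, 30.8 with c-JunDN and 45.9 with Jdp2. Cyr61, a secreted matricellular protein, was at 3.90 CPM with Oct4, 13.3 with DR, 19.2 with c-JunDN and 29.7 with Jdp2, lowest with Oct4 and highest with Jdp2. Of 22 proteases and inhibitors 7 were lower and none higher (median -0.74), among them the metalloproteinase inhibitor Timp2 at 83.5 CPM with Oct4, 258 with DR, 364 with c-JunDN and 411 with Jdp2. The cathepsin gene Ctsk was at 16.4 CPM with Oct4, 49.0 with DR, 63.2 with c-JunDN and 76.3 with Jdp2.

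Growth factor genes were lower more often than higher. Of 24 growth factor receptors and ligands 8 were lower and 1 higher (median -0.58), against 6.67% and 4.65% of all genes. All 8 lay at least 2-fold below each other KSM library, against 64.3% of all lower genes. Igfbp4, which binds insulin-like growth factors, was at 20.04 CPM with Oct4, 117 with DR, 172 with c-JunDN and 109.7 with Jdp2. Igfbp5, of the same family, was at 7.79 CPM with Oct4, 54.1 with DR, 80.7 with c-JunDN and 80.3 with Jdp2. Igfbp2 was at 6.40 CPM with Oct4, 29.1 with DR, 82.9 with c-JunDN and 138 with Jdp2. Areg, the EGF receptor ligand amphiregulin, was at 0.83 against 11.0 CPM, on 3 counts with Oct4. Of 11 cytokine, chemokine and prostaglandin genes 3 were lower and 2 higher. Ptgs1, a cyclooxygenase, was at 13.4 CPM with Oct4, 95.3 with DR, 82.9 with c-JunDN and 77.6 with Jdp2. The chemokine gene Ccl2 was at 6.96 CPM with Oct4, 27.2 with DR, 28.3 with c-JunDN and 27.7 with Jdp2. Il1rn, an interleukin-1 receptor antagonist, was at 5.84 against 0.74 CPM on 2 counts with DR, and Il34, a ligand of the CSF1 receptor, at 7.79 against 2.21 CPM. With a pseudocount of 5 CPM both were within 2-fold (0.92 and 0.83). Of 13 interferon-stimulated genes 3 were higher and none lower (median 0.23). Bst2, which tethers budding viruses, was at 44.3 CPM with Oct4, 16.6 with DR, 14.5 with c-JunDN and 18.9 with Jdp2. Gbp2, a guanylate-binding protein, was at 8.63 CPM with Oct4, 2.58 with DR, 2.20 with c-JunDN and 1.35 with Jdp2. With a pseudocount of 5 CPM its change was 0.85, within 2-fold. Irf1, an interferon regulatory factor, was at 13.9 CPM with Oct4, 6.26 with DR, 9.74 with c-JunDN and 10.8 with Jdp2. The change of Irf1 (1.04) lay at the edge of 2-fold and was 0.98 with DESeq2 size factors.

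Retinoid genes had the lowest median of the lists with over 5 measured genes (-1.29). Retinoic acid, made from vitamin A, drives ESC out of pluripotency. Of 13 measured genes 8 were lower and none higher, against 6.67% and 4.65% of all genes. Of the 8, 5 (62.5%) lay at least 2-fold below each other KSM library, near the 64.3% of all lower genes. Stra6, a cell-surface carrier that takes up retinol, was at 6.68 CPM with Oct4, 43.4 with DR, 102 with c-JunDN and 118 with Jdp2, a fall of 6.50-fold (95% interval 4.17 to 10.6). Cyp26b1, which degrades retinoic acid, was at 3.06 CPM with Oct4, 21.7 with DR, 16.7 with c-JunDN and 15.5 with Jdp2. Crabp1, which binds retinoic acid in the cell, was at 29.8 CPM with Oct4, 96.8 with DR, 122 with c-JunDN and 107 with Jdp2. The dehydrogenase gene Aldh1a7 was at 7.51 CPM with Oct4, 35.7 with DR, 40.2 with c-JunDN and 39.8 with Jdp2. The receptor genes Rara, Rarg and Rxra were within 2-fold (0.31, 0.94 and -0.15), and were looked up after the list was read.

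Of 22 NRF2 and glutathione genes 8 were lower and 2 higher (median -0.46), against 6.67% and 4.65% of all genes. Only 3 of the 8 (37.5%) lay at least 2-fold below each other KSM library, against 64.3% of all lower genes. The glutathione peroxidase gene Gpx2 was at 4.17 CPM with Oct4, 28.0 with DR, 77.6 with c-JunDN and 59.1 with Jdp2. Gsta1 had no count with Oct4 and 7.36 CPM with DR, at least 8.82-fold lower, while Gsta3 was at 18.9 CPM with Oct4, 1.84 with DR, 4.08 with c-JunDN and 1.69 with Jdp2. The alpha-class glutathione transferases are near-identical copies between which reads could be split, and these values are uncertain. Of 30 glycolysis and hypoxia genes 5 were higher and 2 lower, with a median of 0.25. Slc16a3, a lactate exporter, was at 63.7 CPM with Oct4, 16.9 with DR, 7.54 with c-JunDN and 4.39 with Jdp2, a rise of 3.76-fold (95% interval 2.73 to 5.29). Bnip3, a hypoxia target of mitochondrial turnover, was at 34.8 CPM with Oct4, 13.3 with DR, 4.71 with c-JunDN and 6.08 with Jdp2. Eno2, an enolase, was at 16.4 CPM with Oct4, 6.26 with DR, 5.66 with c-JunDN and 12.5 with Jdp2. Adm, the hypoxia target adrenomedullin, was at 1.39 against 7.73 CPM. Of 25 amino acid response and serine synthesis genes 1 was higher and 2 lower. The higher gene was Slc7a3, a carrier of arginine and lysine that is also expressed in ESC (72.7 CPM in WT ESC), at 78.8 CPM with Oct4, 5.15 with DR, 3.14 with c-JunDN and 1.69 with Jdp2, a rise of 15.3-fold (95% interval 8.96 to 28.3). The cystine carrier gene Slc7a11 was at 69.0 CPM with Oct4, 161 with DR, 148 with c-JunDN and 47.9 with Jdp2, and here Jdp2 was the lowest. None of 28 sterol synthesis genes passed 2-fold (median 0.10).

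Replication and mitosis genes stayed within 2-fold. None of 39 passed it, yet their median of 0.39 lay above the 0.07 of all genes, and the largest changes were 0.91 for the replication gene Gins1 and 0.86 for the spindle checkpoint gene Bub1b. Of 14 cyclins D and CDK inhibitors 2 were higher and 3 lower. Ccnd1, cyclin D1, was at 498 CPM with Oct4, 1058 with DR, 887 with c-JunDN and 1261 with Jdp2, highest with Jdp2. The CDK inhibitor gene Cdkn1c was at 2.23 CPM with Oct4, 11.4 with DR, 16.0 with c-JunDN and 25.7 with Jdp2. Cdkn2b, an inhibitor of the cyclin D kinases, was at 12.0 CPM with Oct4, 30.9 with DR, 28.6 with c-JunDN and 27.7 with Jdp2, close in all but the library with Oct4. Rb1, the retinoblastoma gene, was at 94.6 CPM with Oct4, 36.8 with DR, 38.3 with c-JunDN and 38.5 with Jdp2, a rise of 2.57-fold (95% interval 2.05 to 3.25), and Cdkn2d at 13.9 against 5.89 CPM. Of 22 p53 targets 1 was lower (Btg2), and Cdkn1a, which encodes p21, was at 531 CPM with Oct4, 851 with DR, 874 with c-JunDN and 1394 with Jdp2. Of 39 histone-modifying and remodelling genes 1 was higher (Sap30, 1.05) and 1 lower (Phf19, -1.17). With a pseudocount of 5 CPM neither passed 2-fold (0.89 and -0.64), and Sap30 was at 0.99 with DESeq2 size factors. The Polycomb gene Suz12 was at 193 against 108 CPM. Among 13 DNA methylation and demethylation genes Dnmt3a was lower, at 50.7 CPM with Oct4, 106 with DR, 104 with c-JunDN and 85.7 with Jdp2, although its change was -0.91 on the authors' transcript fractions. Apobec1 was higher, at 6.68 against 0.74 CPM on 2 counts with DR, and Tet1 was at 15.6 against 9.57 CPM, against 697 CPM in WT ESC.

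Mesoderm, endoderm and placental genes were mostly low, while the ectoderm and neural genes summed to 860 CPM with Oct4 and 1197 CPM with DR. Of 29 mesoderm and endoderm genes 2 were measured, and Tbx5 was the lower one (-1.15). Of 15 ectoderm and neural genes 5 were lower and none higher, with a median of -0.84. The neuronal tubulin gene Tubb3 was at 103 CPM with Oct4, 283 with DR, 295 with c-JunDN and 155 with Jdp2. The proteoglycan gene Cspg4 was at 17.5 CPM with Oct4, 95.7 with DR, 49.3 with c-JunDN and 66.5 with Jdp2. It was also at 170 CPM in WT MEF, against 1.34 CPM in WT ESC. Neuron markers summed to 668 CPM with DR and 466 CPM with Oct4, and of 4 measured 1 was lower and none higher. Adam23, Gabrb2 and Necab1 were on neither list. Of 5 placental genes 3 were lower and 1 higher. Prl2c3, a proliferin, was at 0 CPM with Oct4, 14.0 with DR, 24.2 with c-JunDN and 41.9 with Jdp2, at least 16.8-fold lower than with DR, and Prl2c2 at 1.95 against 5.52 CPM. The proliferins are near-identical copies and their values are uncertain. Gata2 was at 2.78 CPM with Oct4, 18.4 with DR, 20.1 with c-JunDN and 30.7 with Jdp2. Peg10, a retrotransposon-derived imprinted gene that the placenta needs, was at 161 CPM with Oct4, 18.0 with DR, 25.1 with c-JunDN and 28.7 with Jdp2, a rise of 8.95-fold (95% interval 6.68 to 12.2). Of 19 imprinted genes it was the 1 higher gene, and 5 were lower (median -0.38), such as Plagl1, a zinc-finger gene, at 17.8 CPM with Oct4, 88.0 with DR, 95.5 with c-JunDN and 62.1 with Jdp2. Nnat was at 6.12 against 18.4 CPM. Of 22 HOX genes 1 was lower (Hoxb5, -1.29) and none higher, and none of 25 housekeeping genes passed 2-fold (median 0.02).

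Oct4 without KSM gave another reading that shares no library with the KSM pair. In MEF with Oct4 against MEF with DR, 1303 of 11203 measured genes were higher (11.6%) and 1148 lower (10.2%). Of the 500 genes that were higher in KSM with Oct4, 355 were measured there, 96 of them were higher (27.0%) and 64 lower (18.0%), with a median change of 0.19 against 0.01 for all genes. Of the 717 lower genes, 536 were measured, 140 were lower (26.1%) and 93 higher (17.4%), with a median of -0.18. Both shares lay above the background of their direction, and so did the shares in the opposite direction. Over the 9934 genes measured in both, Pearson's r of the changes was 0.10 and Spearman's rho was 0.02, where genes are not independent replicates and annotations differ between the pair. In all, 236 genes were called the same way and 157 opposite ways.

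Genes called higher in both included Gabrb2, which was at 35.1 CPM with Oct4 and 0 with DR in MEF, Dcaf12l1, a WD-repeat gene, at 77.2 CPM with Oct4 and 1.55 with DR, the autophagy receptor gene Optn at 42.6 CPM with Oct4 and 14.4 with DR and Etv5 at 90.5 CPM with Oct4 and 42.3 with DR. Genes called lower in both included Smoc1, a secreted calcium-binding protein, with a change of -3.11 in KSM and -3.73 in MEF. Others were Igfbp5 (-2.65 and -3.51), Igfbp4 (-2.49 and -3.68), Tgfbi (-2.75 and -3.30), Crabp1 (-1.67 and -4.93), Pdgfra, a receptor of PDGF on fibroblasts (-1.28 and -5.48), and Nkd1 (-4.28 and -2.06). The pluripotency genes that were higher in KSM did not reach 5 CPM in MEF with Oct4 or with DR. L1td1 was at 0.53 CPM with Oct4 and 1.03 with DR there and Tcfcp2l1 at 1.60 CPM with Oct4 and 1.55 with DR. Pou5f1 itself was higher in MEF with Oct4 (10377 CPM) than in KSM with Oct4 (1711 CPM). Other genes were near their controls in MEF, such as Id1 (0.04), Id3 (-0.29), Nid1 (-0.25) and Jun (-0.14). Whether a change differed between KSM and MEF was not tested, with 1 library in each group.

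**Figure D5:**
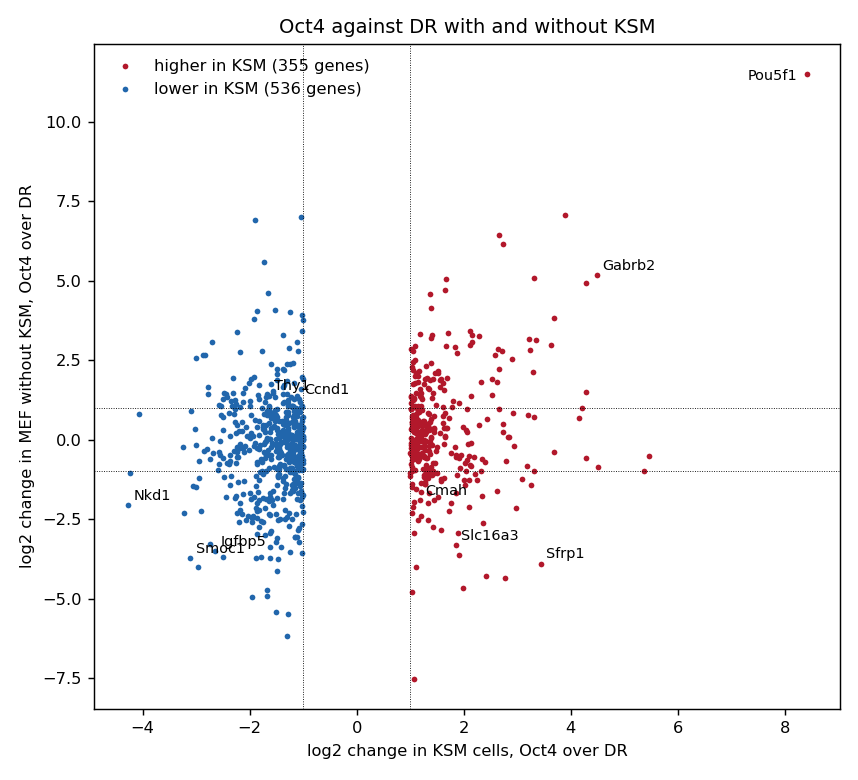
Change with Oct4 in MEF without KSM against the change with Oct4 in KSM cells (both log2 over DR), 1 point for each of the 355 higher and 536 lower genes of KSM that were measured in both, with dotted lines at 2-fold. Points fill all 4 corners, and Pou5f1 is the highest on both axes.

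The WT libraries gave the start and the end of reprogramming. In WT ESC against WT MEF, 3436 of 11693 measured genes were higher (29.4%) and 2841 lower (24.3%). Of 398 KSM higher genes measured there, 171 were higher in WT ESC (43.0%) and 122 lower (30.7%), with a median of 0.56 against 0.19 for all genes. Of 561 KSM lower genes, 342 were lower in WT ESC (61.0%) and 107 higher (19.1%), with a median of -1.95. Read the other way, 756 genes were at least 8-fold higher in WT ESC, of which 346 were measured in the KSM pair, 65 were higher with Oct4 (18.8%) and 38 lower (11.0%). Of 909 genes at least 8-fold higher in WT MEF, 686 were measured, 191 were lower with Oct4 (27.8%) and 47 higher (6.85%), with a median of -0.48. Of the ESC set a minority of genes thus reached 5 CPM in the KSM pair, while most genes of the MEF set did. Several genes went with neither state: Krt8 was at 515 CPM in KSM with DR but at 1.69 CPM in WT ESC and 0 in WT MEF. Nt5e was at 285 CPM in KSM with Oct4, 1.43 CPM in WT ESC and 14.4 CPM in WT MEF.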

How the data were processed

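Per the labels' protocols, Trizol was used for the RNA and a TruSeq kit for the libraries. The authors deposited expected counts per gene from RSEM 1.1.21 on mm9, per the submitters' processing notes, and beside them a fraction of all transcripts per gene, per the file headers. The RNA aligner is not given in the sources used here. The deposited expected counts were rounded and scaled by TMM (edgeR 4.0.16, R 4.3.3) over the 12 RNA libraries that share 20325 gene names. The MEF library with Oct4 uses 27729 Ensembl IDs and was joined by symbol, 1724 through a synonym, with 19680 shared names that held 96.96% of its counts.

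A gene counted as measured at 5 CPM in 1 of the compared libraries. Changes are log2 ratios with a pseudocount of 1 CPM, called at 2-fold. Intervals are exact conditional binomial intervals at 95%, and the limit for a gene without counts is 3 counts in its library. With 1 library per group no p-value was computed. The scripts were tested on simulated data. The members and lists were chosen with earlier results of these data known. Named genes were the factors, up to 4 measured members per list with the largest absolute change, the 15 highest and 15 lowest called genes of at least 20 CPM, and the 8 most abundant called genes per direction. Unnamed gene models, pseudogenes and multigene families were left out of the last sets by the form of their symbols. That filter also left out Lars2, which is none of these. Other genes printed were picked with their values in view. The 9 alternatives were total-count scaling, DESeq2 1.42.0 size factors, TMM on the compared pair, the authors' deposited transcript fraction scaled to TPM, pseudocounts of 0.5 and 5 CPM, and no level filter or one of 1 or 20 CPM. ChIP-seq peaks of the series were not used here.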

Additional observations from a re-analysis of the deposited data

Results flagged for a closer look

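Some named genes went opposite ways with Oct4 in KSM cells and in MEF without KSM, each at least 2-fold over its own control with DR. Values are the log2 change in KSM minus that in MEF. With 1 library in each group the difference was not tested, and the MEF library with Oct4 was counted on another annotation. For Pard6b, Pparg and Sfn the interval of counting error in MEF included equal levels. Pard6b, Irf1, Il1rn, Eno2, Fstl3 and Hoxb5 did not pass 2-fold in KSM with a pseudocount of 5 CPM. Of the named genes, 9 were higher with Oct4 in KSM and lower in MEF. Among all 355 higher genes of KSM that were measured in MEF, 64 were lower there (18.0%). Of all genes measured in MEF, 10.2% were lower. The naming rule favours large changes in KSM. Sfrp1, a secreted Wnt binder, was at 34.0 CPM with Oct4 and 2.2 CPM with DR in KSM cells, and at 22.9 and 356 CPM in MEF, a difference between the changes of 7.35. Slc16a3, a lactate exporter, was at 63.7 CPM with Oct4 and 16.9 CPM with DR in KSM cells, and at 5.3 and 62.4 CPM in MEF, a difference between the changes of 5.18. Cmah, which hydroxylates sialic acid, was at 644 CPM with Oct4 and 282 CPM with DR in KSM cells, and at 16.5 and 64.5 CPM in MEF, a difference between the changes of 3.09. The other differences in this direction were Peg10 (4.34), Il1rn (6.65), Bnip3 (2.53), Eno2 (2.38), Pard6b (2.56) and Irf1 (2.45). Bnip3, Eno2 and Slc16a3 belong to the list of glycolysis and hypoxia genes. Irf1 belongs to the interferon-stimulated genes. Of 36 of these measured in MEF, 22 were lower with Oct4 and none higher, with a median change of -1.29. Their list summed to 3972 CPM in MEF with DR and 572 CPM in WT MEF, so the control with DR was itself high. The change of Irf1 in MEF was thus shared by most of its list, and its cause was not tested.

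Of the named genes, 8 were lower with Oct4 in KSM and higher in MEF. Among all 536 lower genes of KSM that were measured in MEF, 93 were higher there (17.4%). Of all genes measured in MEF, 11.6% were higher. Thy1, a fibroblast surface protein, was at 7.0 CPM with Oct4 and 23.9 CPM with DR in KSM cells, and at 1088 and 418 CPM in MEF, a difference between the changes of -3.03. Fstl3, an activin antagonist, was at 0.8 CPM with Oct4 and 6.3 CPM with DR in KSM cells, and at 66.6 and 17.0 CPM in MEF, a difference between the changes of -3.89. Ccnd1, cyclin D1, was at 498 CPM with Oct4 and 1058 CPM with DR in KSM cells, and at 736 and 305 CPM in MEF, a difference between the changes of -2.35. The other differences in this direction were Anxa2 (-2.06), Hoxb5 (-2.33), Cd68 (-3.38), Pparg (-3.51) and Sfn (-3.77). Cd68 and Pparg were low in both kinds of cells, and Sfn was below 10 CPM in both MEF libraries. Cd68 was the 1 macrophage marker measured in KSM cells. Of 12 macrophage markers measured in MEF, 11 were higher with Oct4 and none lower, with a median change of 2.23. The change of Cd68 in MEF was thus shared by most of its list, and the part of such cells in it was not tested.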

How the results depend on the processing

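The 9 alternatives reversed no count, share or Pou5f1 change. Of the list medians under these alternatives, 245 stayed within the band of 0.2 on the log2 scale set for them, and 31 moved beyond it. The number of genes at least 2-fold higher was 277 with a pseudocount of 5 CPM, 792 without a level filter or with one of 1 CPM, and 235 with one of 20 CPM, against 500. The number lower was 455 with that pseudocount, 1071 without a filter or with one of 1 CPM, and 379 with one of 20 CPM, against 717. With DESeq2 size factors 413 genes were higher and 781 lower, and 413 and 717 of them were shared with the counts reported. The change of Pou5f1 was 7.57 with a pseudocount of 5 CPM. On the authors' transcript fractions the share of KSM higher genes also higher in MEF with Oct4 was 32.7%, and that of lower genes also lower was 21.4%. The share of higher genes that were higher in WT ESC was 37.6% with a pseudocount of 5 CPM, 36.1% without a filter and 36.7% with one of 20 CPM. The share of lower genes that were lower in WT ESC was 56.0%, 45.3% without a filter and 53.8% with one of 1 CPM. Of 138 named genes past 2-fold, 24 lost that call under some alternative, 23 of them with a pseudocount of 5 CPM. Among the latter were Zfp42 (0.92), Snai1 (-0.86), Fosl2 (-0.93), Gbp2 (0.85) and Pdgfra (-0.78). The cause was not tested. No paired analysis was possible because each group has 1 library. With 3 counts worth about 1 CPM, changes in genes near that level were not detectable.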

Other observations

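Changes with Oct4 did not follow gene length in their centre. Over 10 classes of 1075 measured genes each, from the shortest to the longest, the median change ranged from 0.04 to 0.09. The share of genes at least 2-fold higher was 2.88% in the shortest class and 6.14% in the longest, and that of lower genes was 6.70% and 7.35%.

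Marker lists of other cell types differed in level. Hba-a1, an alpha-globin gene, had 19 counts with DR and none with Oct4, while the other erythroid markers were at or near 0. Skeletal muscle markers summed to 11.4 CPM with DR and 3.34 CPM with Oct4, with Myod1, Myog and Myh3 at 0 in both. Adipocyte markers summed to 59.3 CPM with DR and 25.6 CPM with Oct4, with Adipoq and Cfd at 0 in both. Neuron markers summed to 668 CPM with DR and 466 CPM with Oct4, endothelial markers to 28.3 and 30.9 CPM, and Schwann cell or neural crest markers to 13.6 and 10.3 CPM.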
